A study of Mus musculus with 4 samples.

Results

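The genes described are 6 collagen genes, Col6a1, Col6a2, Col6a3, Col18a1, Col4a1 and Col4a2, of the 31055 genes in the deposited tables. They were chosen by gene symbol and by earlier results from the same libraries: Col6a1, Col6a2 and Col18a1 lie in the duplicated segment, and the genotype contrast of Col6a1 and Col6a2 did not follow their extra copy. Col6a3, Col4a1 and Col4a2 lie outside the segment, have the usual copy number in both genotypes and serve as controls. Since that contrast took part in the choice, every difference between the genotypes in these 6 genes is given as a description, with no test.

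Collagen VI is built from the products of Col6a1, Col6a2 and a further chain such as that of Col6a3, and forms beaded microfibrils in the matrix around cells; in the brain it is known from the fibroblasts of the meninges and of the larger vessels. Collagen IV, made from Col4a1 and Col4a2, is the network-forming collagen of basement membranes, including those of brain vessels. Collagen XVIII, the product of Col18a1, is a basement membrane collagen that carries heparan sulfate chains, and endostatin is released from its end.

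The study used mice with the Dp(10)2Yey duplication, which carry an extra copy of a stretch of mouse chromosome 10 whose counterpart is on the human chromosome present in excess in Down syndrome. The hippocampus of male mice aged 3 months, on a C57BL/6J background, was dissociated and sequenced by droplet single-cell RNA sequencing, with 1 library per mouse. There were 2 libraries from Dp(10)2Yey mice and 2 from wild-type (WT) littermates, prepared on 2 days with 1 mouse of each genotype per day; the labels do not say which replicate numbers share a day. The question asked of the 6 genes was which cells and which libraries hold their transcripts.

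WT replicate 1 held 3002546 unique molecular identifiers (UMIs, each counting 1 captured RNA molecule) in 1039 cell barcodes, and WT replicate 2 held 6848466 in 1708. Of the Dp(10)2Yey libraries, replicate 1 had 1372 barcodes with 5112759 UMIs and replicate 2 had 2345 barcodes with 9612011 UMIs. WT replicate 1 was thus the shallowest library. Any pair of libraries shared between 0 and 3 barcode sequences. After barcodes with fewer than 200 genes and 34 red blood cell barcodes were left out, 6247 cells remained of 6464 barcodes, with 1014 and 1681 cells in WT replicates 1 and 2 and 1348 and 2204 in Dp(10)2Yey replicates 1 and 2. Their median depth was 2118 and 3703 UMIs per cell in the WT libraries and 3391 and 3674.5 in the Dp(10)2Yey libraries. Levels are given in CPM, the UMIs of a gene per 1000000 UMIs of the same cells. Intervals are exact 95% intervals (Poisson for counts, Clopper-Pearson for shares) and cover counting error only.

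The cells formed 15 clusters, of which 11 could be named after cell types from lists of marker genes; a name such as microglia-like means that at least 3 of a cluster's 10 leading genes are markers of that type. The 6 collagen genes took no part in forming the clusters. The labelled tissue was checked against genes of excitatory hippocampal neurons in the neuron-like cluster: Slc17a7, a vesicular glutamate transporter, had 41, 292, 121 and 227 UMIs in WT replicates 1 and 2 and Dp(10)2Yey replicates 1 and 2. Prox1, a transcription factor of dentate granule cells, had 5, 117, 7 and 37 UMIs there, in the same order. Both genes were thus present in every library, with the fewest UMIs in WT replicate 1. Vascular markers were present too, since all 17 genes of the endothelial list had UMIs in each library. The leading genes of the endothelial-like cluster were 6 endothelial markers and 4 globin genes.

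In the annotation of the mouse genome, build GRCm38, Col6a2 (ENSMUSG00000020241) lies at chr10:76595762-76623630 and Col6a1 (ENSMUSG00000001119) next to it at chr10:76708792-76726168, both on the minus strand. Col18a1 (ENSMUSG00000001435) lies further along at chr10:77052178-77166548, also on the minus strand, and its 3′ end overlaps that of Slc19a1 on the plus strand; whether counting used the strand is not stated for these files. The duplicated segment, taken from Prmt2 to Pdxk, spans 2.26 Mb and holds these 3 genes. Col6a3 (ENSMUSG00000048126) lies at chr1:90765923-90843971 on the minus strand. Col4a1 (ENSMUSG00000031502, chr8:11198423-11312826, minus strand) and Col4a2 (ENSMUSG00000031503, chr8:11312805-11449287, plus strand) meet at their starts and point away from each other.

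All 6 genes had at least 1 promoter in the RefSeq table of 300-base windows (build GRCm38.p6), 8 windows in all. Shown are 1 window each of the neighbours Col6a1 and Col6a2, because the 2 genes shared their cells. The windows of Col4a1 and Col4a2 are shown because the pair starts from a common stretch. Col6a2 had a further window, chr10:76623581-76623880 on the minus strand, that is not shown. In the first pair, capitals mark matches to GGGCGG (the GC box, shown as CCGCCC where it is on the other strand) or to TGANTCA (an AP-1 motif). The Col6a1 window is chr10:76725995-76726294 and the Col6a2 window shown is chr10:76623355-76623654, both read on the minus strand.
Col6a1: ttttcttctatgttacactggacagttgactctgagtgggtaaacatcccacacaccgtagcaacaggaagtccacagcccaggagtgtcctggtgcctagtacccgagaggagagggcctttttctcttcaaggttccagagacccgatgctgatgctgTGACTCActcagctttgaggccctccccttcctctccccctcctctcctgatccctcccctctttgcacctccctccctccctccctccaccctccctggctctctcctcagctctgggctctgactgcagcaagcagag
Col6a2: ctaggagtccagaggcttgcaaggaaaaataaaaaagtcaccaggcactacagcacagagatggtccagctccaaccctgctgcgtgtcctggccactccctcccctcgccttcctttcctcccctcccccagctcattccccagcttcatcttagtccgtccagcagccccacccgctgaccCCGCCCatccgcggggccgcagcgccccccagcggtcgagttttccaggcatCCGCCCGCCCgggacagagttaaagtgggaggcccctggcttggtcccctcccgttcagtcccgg
In the second pair, capitals mark the 78 bases that both windows contain, in opposite orientation. The Col4a1 window is chr8:11312777-11313076 on the minus strand and the Col4a2 window chr8:11312555-11312854 on the plus strand.
Col4a1: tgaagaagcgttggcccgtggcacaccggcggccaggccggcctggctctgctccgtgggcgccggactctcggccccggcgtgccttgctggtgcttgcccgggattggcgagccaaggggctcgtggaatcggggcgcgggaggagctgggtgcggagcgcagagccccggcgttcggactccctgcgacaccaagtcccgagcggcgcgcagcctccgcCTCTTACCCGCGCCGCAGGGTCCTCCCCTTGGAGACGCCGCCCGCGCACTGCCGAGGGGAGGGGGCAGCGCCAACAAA
Col4a2: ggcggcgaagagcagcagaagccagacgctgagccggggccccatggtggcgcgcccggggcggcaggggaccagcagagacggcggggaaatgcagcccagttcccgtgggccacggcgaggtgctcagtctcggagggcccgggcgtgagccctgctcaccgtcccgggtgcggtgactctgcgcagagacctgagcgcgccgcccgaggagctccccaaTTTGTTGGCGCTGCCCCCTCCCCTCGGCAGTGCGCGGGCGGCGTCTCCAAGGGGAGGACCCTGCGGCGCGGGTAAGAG
On both strands, GGGCGG was found in 35.7% of all 32851 promoters of this length, CCAAT in 37.4%, TATAAA in 13.6% and TGANTCA in 7.81%. The Col6a1 window held 1 TGANTCA and none of the other motifs. The Col6a2 window shown held 3 copies of GGGCGG, of which 2 overlap, and none of the others. The further Col6a2 window held 1 GGGCGG and none of the others. The Col4a1 window held 1 GGGCGG and 1 CCAAT, and the Col4a2 window 3 and 1. The Col6a1 and Col6a2 windows thus shared none of the 4 motifs. A match describes the letters of a window and shows no binding.

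Among WT libraries, Col6a1 had 3 UMIs in replicate 1 (1.02 CPM) and 105 in replicate 2 (15.6 CPM), and among Dp(10)2Yey libraries 1 UMI in replicate 1 (0.2 CPM) and 34 in replicate 2 (3.82 CPM). WT replicate 2 was the highest, its interval of 12.7 to 18.8 CPM lying above that of Dp(10)2Yey replicate 2, 2.65 to 5.34 CPM, and the genotypes overlapped, since the other WT library was below Dp(10)2Yey replicate 2. The group means were 8.31 ± 10.3 CPM (SD, n = 2) in WT and 2.01 ± 2.56 CPM (SD, n = 2) in Dp(10)2Yey. The difference between these means was smaller than the SD of the WT group.

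Col6a2 had 7 UMIs (2.37 CPM) and 75 UMIs (11.1 CPM) in WT replicates 1 and 2, and 4 UMIs (0.798 CPM) and 42 UMIs (4.72 CPM) in Dp(10)2Yey replicates 1 and 2. The order of the libraries was the same as for Col6a1, with replicate 2 of each genotype above both replicates 1, and the genotypes again overlapped. Group means were 6.73 ± 6.17 CPM (SD, n = 2) in WT and 2.76 ± 2.77 CPM (SD, n = 2) in Dp(10)2Yey, again less apart than the SD of the WT group.

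**Figure D1:**
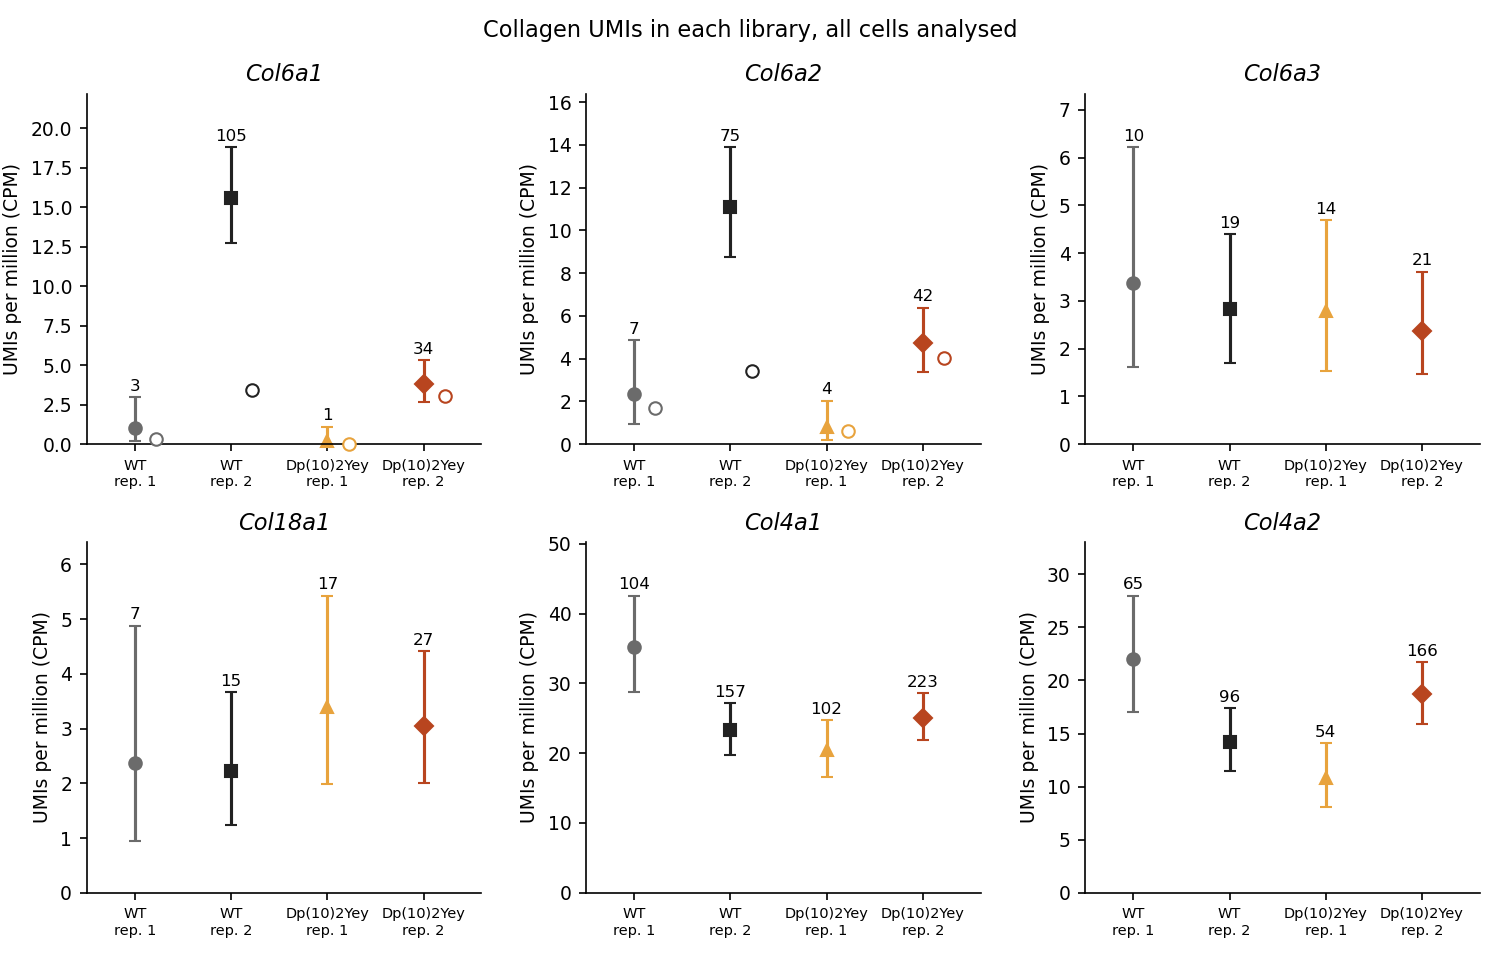
Level of each collagen gene in each library (CPM, with exact 95% Poisson intervals as bars), with the number of UMIs above each point and, for Col6a1 and Col6a2, open circles for the level without the library's cell of most UMIs of that gene. Col6a1 falls from 15.6 to 3.43 CPM in WT replicate 2 when 1 cell is left out.

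A single cell of WT replicate 2 accounted for much of these counts. It was the deepest of all 6247 cells, with 50429 UMIs, 13% of them mitochondrial, over 7496 genes, and it was not called a doublet (score 0.0762). It held 82 of the 143 Col6a1 UMIs in all libraries (57.3%) and 52 of the 128 Col6a2 UMIs (40.6%), but 0.747% of the UMIs of its own library. Within the cell the levels were 1630 CPM for Col6a1 and 1030 CPM for Col6a2. The same cell had 0 UMIs of Col6a3, 0 of Col18a1, 3 of Col4a1 and 1 of Col4a2.

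The cell carried UMIs of 9 of 14 fibroblast markers, 1278 in all and 1075 of them from Mgp, the matrix Gla protein gene. It also carried 209 UMIs of 6 astrocyte markers, 94 of 5 endothelial markers, 58 of 5 oligodendrocyte markers and 16 of 2 pericyte markers. The next cell held 8 Col6a1 UMIs, and no other held more than 6 of Col6a2. Per UMI, 2 shallow cells with 1 or 2 UMIs were higher in Col6a1 (2360 and 1670 CPM). Shallow cells of the same cluster, with 2 UMIs each, reached 3420 and 2490 CPM of Col6a2. The other 20 cells of that cluster, summed, had 555 CPM of Col6a1 (403 to 745) and 592 CPM of Col6a2 (435 to 788). The deepest cell, at 1630 and 1030 CPM, lay above both of these intervals. Without this cell WT replicate 2 had 23 UMIs of each gene, or 3.43 CPM for Col6a1 (2.18 to 5.15) and 3.43 CPM for Col6a2 (2.18 to 5.15). Dp(10)2Yey replicate 2 was then the highest library for both genes, with 3.82 and 4.72 CPM, and its intervals overlapped those of WT replicate 2.

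**Figure D2:**
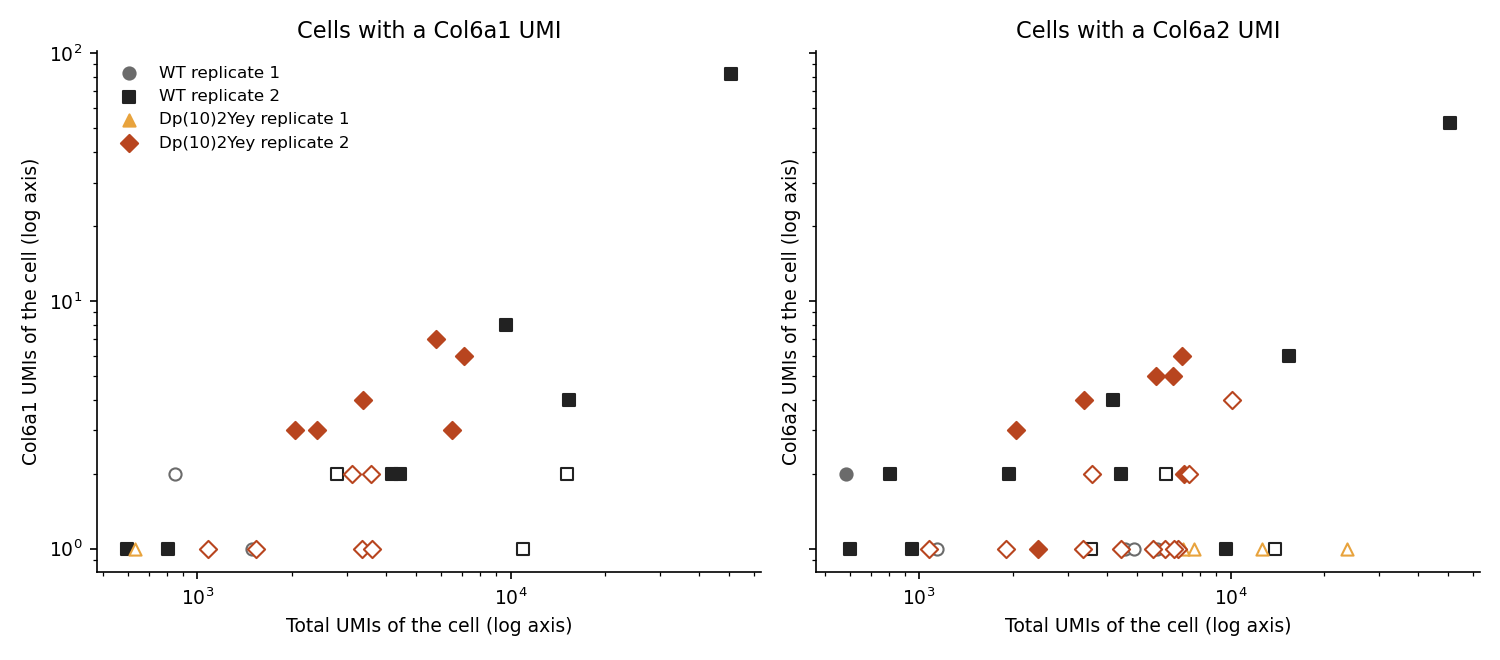
UMIs of Col6a1 and of Col6a2 in each cell with at least 1 (vertical axis) against the total UMIs of that cell (horizontal axis), both on log scales, with filled symbols for the Mgp cluster and open symbols for all other clusters. The WT replicate 2 cell with 82 and 52 UMIs stands apart from all others in both counts.

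That cell belonged to a cluster of 21 cells led by Mgp, Prg4, Nov, Igfbp6, Slc47a1, Rspo3, Col6a1, Slc26a7, Slc4a10 and Fxyd5, called the Mgp cluster here because only 1 of its 10 leading genes is on the fibroblast list. Its cells came from WT replicate 1 (3 cells), WT replicate 2 (11 cells) and Dp(10)2Yey replicate 2 (7 cells), and none from Dp(10)2Yey replicate 1. The Mgp cluster held 126 of 143 Col6a1 UMIs (88.1%, 81.6 to 92.9) and 99 of 128 Col6a2 UMIs (77.3%, 69.1 to 84.3). Without the deepest cell these shares were 72.1% and 61.8%, and without WT replicate 2 they were 68.4% and 52.8% (38.6 to 66.7). It held 0 UMIs of Col6a3, 0 of Col18a1, 4 of Col4a1 and 3 of Col4a2, so the chains of collagen VI parted here: a count of 0 in 129756 UMIs allows up to 23.1 CPM of Col6a3, against 971 CPM of Col6a1 and 763 CPM of Col6a2.

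A Col6a1 UMI was seen in 13 of the 21 cells (61.9%, 38.4 to 81.9) at a median depth of 2415 UMIs, and in 1 of 2005 microglia-like cells (0.0499%) at a median of 4097. For Col6a2 the numbers were 17 of 21 cells (81.0%, 58.1 to 94.6) and 1 of 2005 microglia-like cells (0.0499%). The presence of both transcripts in the Mgp cluster therefore did not rest on the deepest cell. Without it the level in the cluster was 555 CPM of Col6a1 (403 to 745), beside 971 (809 to 1160) with it, and 592 CPM of Col6a2 (435 to 788), beside 763 (620 to 929).

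By library, Col6a1 in the Mgp cluster had 0 UMIs in the 3 cells of WT replicate 1, 100 in WT replicate 2 (1090 CPM, 887 to 1330) and 26 in Dp(10)2Yey replicate 2 (760 CPM, 497 to 1110). Without the deepest cell, WT replicate 2 had 18 Col6a1 UMIs in 10 cells (436 CPM, 258 to 689), so the order of these 2 libraries turned round while their intervals overlapped. Col6a2 had 2 UMIs in WT replicate 1 (521 CPM, 63.1 to 1880), 71 in WT replicate 2 (774 CPM, 605 to 976) and 26 in Dp(10)2Yey replicate 2 (760 CPM, 497 to 1110). Without the deepest cell WT replicate 2 had 19 Col6a2 UMIs (460 CPM, 277 to 719), again overlapping Dp(10)2Yey replicate 2. A count of 0 in the 3839 UMIs of the WT replicate 1 cells allows up to 781 CPM of Col6a1, and Dp(10)2Yey replicate 1 had no such cell, so a difference between the genotypes within the Mgp cluster was not detectable at this depth.

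The Mgp cluster had UMIs of 11 of 14 fibroblast markers, 2670 in all, with Mgp (2248) ahead of Col1a2 (116), Islr (96) and Ogn (81), and with Lum, Igf2 and Slc6a13 at 0. It had 394 UMIs of 9 of 16 astrocyte markers and 242 UMIs of 9 of 17 endothelial markers. Of the endothelial markers the most abundant was Bsg (103), while Cldn5, Flt1 and Ly6c1 were at 0. Of 12 pericyte markers 3 had UMIs, 36 in all, and none of its 21 cells was called a doublet.

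With all cells used, the summed level of the fibroblast list ordered the libraries as Col6a1 and Col6a2 did: it was 106 and 403 CPM in WT replicates 1 and 2, and 65.1 and 139 CPM in Dp(10)2Yey replicates 1 and 2. Mgp alone had 2617 UMIs over all libraries, 2248 of them in the Mgp cluster. The deepest cell held 1278 of the 2722 UMIs of this list in WT replicate 2, which stood at 216 CPM without it, still the highest. The orders then differed, since Col6a1 and Col6a2 were highest in Dp(10)2Yey replicate 2 (3.82 and 4.72 CPM, beside 3.43 CPM for each in WT replicate 2). All 14 markers were detected in each library except Dp(10)2Yey replicate 1, which had 12. Outside the Mgp cluster the sums were 91.2, 82.9, 65.1 and 88.5 CPM in the same order, a far narrower range. The number of such cells captured from each mouse, and its part in the difference between libraries, was not tested.

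The Mgp cluster was separate at the clustering resolution of 0.2 used throughout, with the 6 genes set aside and the libraries integrated. At a resolution of 0.5, without integration, or with the 6 genes used for clustering, the endothelial-like cluster grew from 281 to 303, 307 and 304 cells and took in most of the Col6a1 and Col6a2 UMIs. The endothelial-like share of Col6a1 then rose from 7.69% to 95.8%, 97.2% and 97.2%, and that of Col6a2 from 1.56% to 78.9%, 80.5% and 80.5%. The class that Col6a1 and Col6a2 were credited to thus depended on the clustering.

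Marker genes read cell by cell, with no clustering, were compared with the clusters. A cell was assigned to a type when it had UMIs of at least 3 of the type's markers and of a larger fraction of that list than of any other. This found 32 fibroblast-marker cells, 6 and 12 of them in WT replicates 1 and 2, and 0 and 14 in Dp(10)2Yey replicates 1 and 2. They held 125 of the 143 Col6a1 UMIs (87.4%, 80.8 to 92.4) and 83 of the 128 Col6a2 UMIs (64.8%, 55.9 to 73.1). The Col6a2 share depended on 1 cell and its library: it was 31 of 76 UMIs (40.8%, 29.6 to 52.7) without the deepest cell and 19 of 53 (35.8%, 23.1 to 50.2) without WT replicate 2. The Col6a1 share was then 70.5% and 71.1%.

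Of these 32 cells, 15 were in the Mgp cluster and 15 in the endothelial-like cluster. The latter 15 held 10 of the 11 Col6a1 UMIs and both Col6a2 UMIs of the endothelial-like cluster, whereas its 241 endothelial-marker cells held 1 Col6a1 UMI and 0 of Col6a2. The 22 pericyte-marker cells held 0 Col6a1 UMIs. The endothelial-like level of Col6a1, 8.89 ± 6.4 CPM (SD, n = 4), was therefore carried by cells with fibroblast markers.

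In fibroblast-marker cells Col6a1 stood at 387 CPM in WT replicate 1 (3 UMIs), 1070 CPM in WT replicate 2 (98 UMIs) and 615 CPM in Dp(10)2Yey replicate 2 (24 UMIs). Leaving out the deepest cell brought WT replicate 2 to 392 CPM (224 to 636), beside 394 to 915 CPM in Dp(10)2Yey replicate 2. Col6a2 stood at 258 CPM (2 UMIs), 701 CPM (64 UMIs) and 435 CPM (17 UMIs) in the same 3 libraries, and at 294 CPM (152 to 513) in WT replicate 2 without that cell. In both genes the remaining intervals overlapped between the genotypes.

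**Figure D3:**
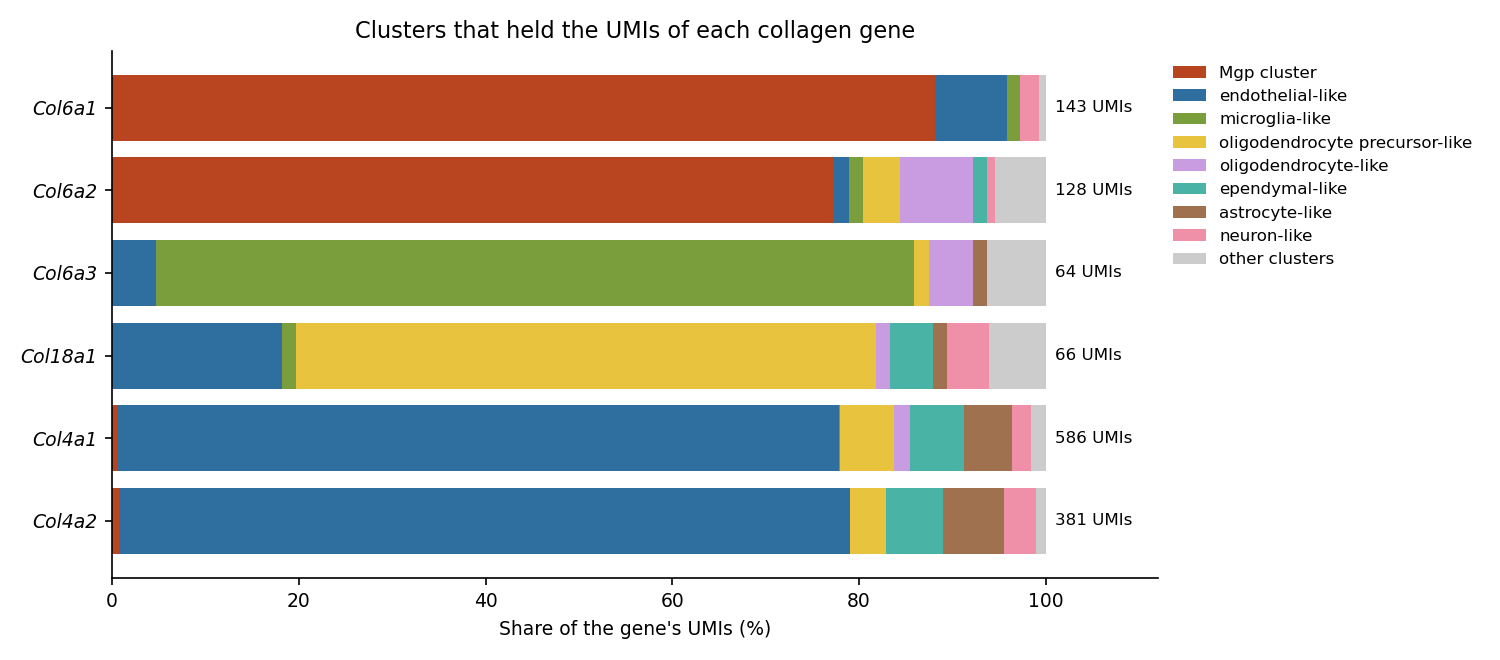
Share of each gene's UMIs (horizontal axis, percent, all 4 libraries together) held by each cluster, as stacked bars, 1 bar per gene. Col6a1 and Col6a2 are held mostly by the Mgp cluster (88.1% and 77.3%), Col6a3 by the microglia-like cluster (81.2%), Col18a1 by the oligodendrocyte precursor-like cluster (62.1%) and Col4a1 and Col4a2 by the endothelial-like cluster (77.1% and 78.2%).

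Outside the Mgp cluster Col6a1 had 17 UMIs, of which 11 were endothelial-like, 3 neuron-like, 2 microglia-like and 1 in a cluster led by Ppbp. Its level over these cells was 1.02, 0.751, 0.2 and 0.903 CPM in WT replicates 1 and 2 and Dp(10)2Yey replicates 1 and 2. The libraries overlapped in genotype, and their intervals, such as 0.244 to 1.75 CPM in WT replicate 2, overlapped too. With fibroblast-marker cells also set aside, 7 Col6a1 UMIs remained in 6209 cells.

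Col6a2 kept more of its UMIs elsewhere, with 29 outside the Mgp cluster: 10 oligodendrocyte-like, 6 Cajal-Retzius-like, 5 oligodendrocyte precursor-like, 2 each in the ependymal-like, microglia-like and endothelial-like clusters, and 1 each in the neuron-like and neuroblast-like clusters. Over these cells it stood at 1.69, 0.601, 0.798 and 1.81 CPM in WT replicates 1 and 2 and Dp(10)2Yey replicates 1 and 2, with overlap between the genotypes. Of the 10 oligodendrocyte-like UMIs, 4 came from 1 cell of Dp(10)2Yey replicate 2.

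Among Cajal-Retzius-like cells, early-born neurons of the hippocampal fissure, 6 of 51 had a Col6a2 UMI (11.8%, 4.44 to 23.9, median depth 3961), at 24.6 CPM. Of microglia-like cells 1 of 2005 had one (0.0499%, median depth 4097). Of the 6 cells, 1 of Dp(10)2Yey replicate 2 also carried 12 endothelial and 9 pericyte markers and was not called a doublet (score 0.222). Cells assigned to the Cajal-Retzius type by markers alone held 5 Col6a2 UMIs. The 6 UMIs of the cluster came from WT replicate 1 (3 UMIs, 72.6 CPM), WT replicate 2 (1 UMI, 13.7 CPM) and Dp(10)2Yey replicate 2 (2 UMIs, 19.7 CPM). Dp(10)2Yey replicate 1 had 0. The pooled level thus leaned on WT replicate 1, and the cluster held 8 to 17 cells per library. Col6a1 had 0 UMIs in these 51 cells, which allows up to 12.3 CPM.

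Across the 11 clusters with at least 10 cells in every library, from which the Mgp and Cajal-Retzius-like clusters are missing, the mean level of Col6a1 ran from 8.89 ± 6.4 CPM (SD, n = 4) in endothelial-like cells to 0 in 7 clusters, and neighbours in the order overlapped throughout. For Col6a2 it ran from 3.36 ± 3.89 CPM (SD, n = 4) in ependymal-like cells to 0 in 4 clusters, and neighbours in the order overlapped as well. Most classes of the hippocampus thus held these transcripts at or near the limit that a count of 0 allows.

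Col6a3, which encodes the largest of these collagen VI chains and has the usual copy number, had 10 UMIs (3.38 CPM) and 19 UMIs (2.82 CPM) in WT replicates 1 and 2, and 14 UMIs (2.79 CPM) and 21 UMIs (2.36 CPM) in Dp(10)2Yey replicates 1 and 2. Both Dp(10)2Yey libraries were narrowly below both WT libraries on this scale. The order changed with composition scaling (TMM), under which the 4 values were 3.38, 2.82, 2.86 and 2.33 CPM and the genotypes overlapped. Unlike its partner chains, Col6a3 had no cell with more than 3 UMIs.

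Most of its UMIs were in other cells. The microglia-like cluster held 52 of the 64 Col6a3 UMIs (81.2%, 69.5 to 89.9), at 7.13, 6.11, 6.50 and 5.57 CPM in WT replicates 1 and 2 and Dp(10)2Yey replicates 1 and 2. The mean was 6.33 ± 0.657 CPM (SD, n = 4), with little spread among libraries and overlapping genotypes. The next cluster, led by Ppbp and low in UMIs, had 5.46 ± 6.92 CPM (SD, n = 4), and the endothelial-like cluster 3.04 ± 4.39 CPM (SD, n = 4), and neither differed from its neighbour beyond the spread.

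A Col6a3 UMI was seen in 47 of 2005 microglia-like cells (2.34%, 1.73 to 3.11; median depth 4097) and in 3 of 968 oligodendrocyte-like cells (0.31%, 0.064 to 0.903; median depth 4969). After every cell was thinned to 1000 UMIs, which left out 80 and 47 cells, the shares were 0.675% (0.36 to 1.15) and 0 of 921 (0 to 0.4%). The intervals were apart in whole cells and just met in thinned ones, where all 13 cells with a UMI were microglia-like. Fibroblast-marker cells held 2 Col6a3 UMIs, beside 125 of Col6a1, and both were in the endothelial-like cluster, which held 3. Per UMI, Col6a3 was not lower in them: it stood at 14.5 CPM (1.75 to 52.3). Microglia-marker cells had 6.04 CPM (4.56 to 7.84), and the intervals overlapped.

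Col18a1, the remaining gene of the duplicated segment, had 7 UMIs (2.37 CPM) and 15 UMIs (2.22 CPM) in WT replicates 1 and 2, and 17 UMIs (3.39 CPM) and 27 UMIs (3.04 CPM) in Dp(10)2Yey replicates 1 and 2. Both Dp(10)2Yey libraries were above both WT libraries, while the counting intervals, such as 1.24 to 3.67 CPM in WT replicate 2 and 1.98 to 5.43 CPM in Dp(10)2Yey replicate 1, overlapped. Group means were 2.29 ± 0.106 CPM (SD, n = 2) in WT and 3.21 ± 0.247 CPM (SD, n = 2) in Dp(10)2Yey. The distance between the means exceeded the SD of either group.

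The oligodendrocyte precursor-like cluster held 41 of the 66 Col18a1 UMIs (62.1%, 49.3 to 73.8), each in a different cell. There the WT libraries had 3 UMIs in replicate 1 (11.2 CPM, 2.31 to 32.7) and 5 in replicate 2 (8.93 CPM, 2.9 to 20.8). The Dp(10)2Yey libraries had 16 in replicate 1 (29.4 CPM, 16.8 to 47.8) and 17 in replicate 2 (24.8 CPM, 14.4 to 39.6). The Dp(10)2Yey libraries were both above the WT libraries, at 27.1 ± 3.25 against 10.1 ± 1.61 CPM (SD, n = 2 each), and the counting intervals overlapped. Over all cells 14.0% of the 13807 genes tested parted in this direction, and no such share was counted within this cluster. A split by genotype was not particular to Col18a1. The control Col4a1 parted in the same direction in astrocyte-like cells, at 16.4 ± 1.34 CPM in Dp(10)2Yey and 9.26 ± 7.27 CPM in WT.

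A Col18a1 UMI was present in 8.86% of oligodendrocyte precursor-like cells (6.43 to 11.8; median depth 4459) and in 0.0499% of microglia-like cells (median depth 4097). Thinned to 1000 UMIs, with 70 and 80 cells left out, the shares were 1.78% (0.719 to 3.64) and 0.0519% (0.00132 to 0.289). Oligodendrocyte precursor cells, which renew the myelin-forming cells, are what this cluster's markers name, and among the 15 clusters it ranked first for Col18a1 by UMIs and by share of cells over all libraries together. By genotype it held 33 of 44 Col18a1 UMIs in Dp(10)2Yey (75.0%, 59.7 to 86.8) and 8 of 22 in WT (36.4%, 17.2 to 59.3), where its mean of 10.1 CPM lay near that of endothelial-like cells (9.82 CPM) and under that of choroid plexus-like cells (14.7 CPM).

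The endothelial-like cluster was the next holder, with 12 Col18a1 UMIs, at 14.0, 5.65, 0 and 18.3 CPM in WT replicates 1 and 2 and Dp(10)2Yey replicates 1 and 2. Its mean of 9.49 ± 8.22 CPM (SD, n = 4) overlapped that of the oligodendrocyte precursor-like cluster, 18.6 ± 10.1 CPM (SD, n = 4). Of these 12 UMIs, 8 were in the 15 fibroblast-marker cells of the cluster and 3 in its 241 endothelial-marker cells. Over all fibroblast-marker cells Col18a1 reached 57.9 CPM (25.0 to 114), against 2.95 CPM (0.607 to 8.61) in endothelial-marker cells and 21.5 CPM (15.5 to 29.1) in oligodendrocyte precursor-marker cells. The first value rests on 8 UMIs: it was 91.3 CPM (39.4 to 180) without the deepest cell, and by library 387 and 21.9 CPM in WT replicates 1 and 2 and 76.9 CPM in Dp(10)2Yey replicate 2.

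Dp(10)2Yey replicate 1 was the library with no endothelial-like Col18a1 UMI, no Mgp cluster cell and no fibroblast-marker cell. Outside the oligodendrocyte precursor-like and endothelial-like clusters, no cluster held more than 3 Col18a1 UMIs, and all neighbours in the order of mean levels overlapped; choroid plexus-like cells, at 7.35 ± 14.7 CPM (SD, n = 4), had both of their UMIs in WT replicate 2.

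**Figure D4:**
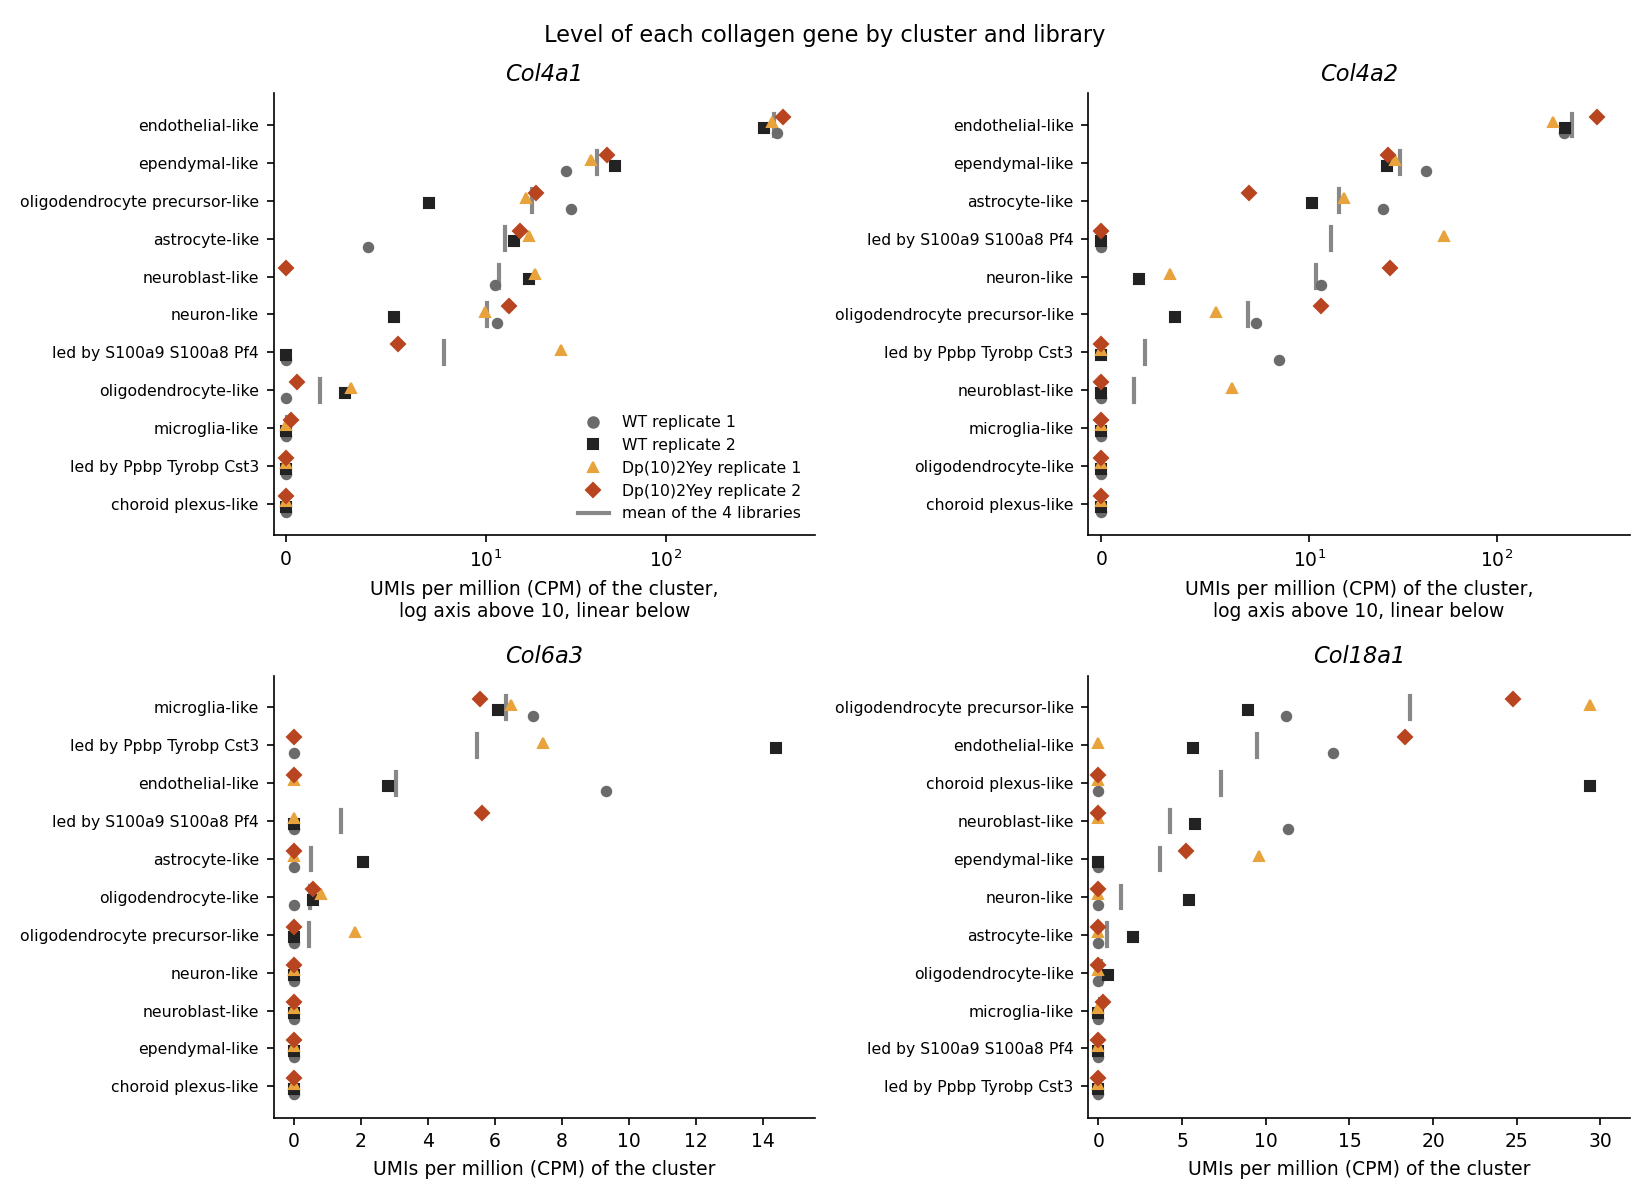
Level (CPM) of Col4a1, Col4a2, Col6a3 and Col18a1 in the clusters with at least 10 cells in every library, with 1 point per library and a grey line at the mean; the axis of Col4a1 and Col4a2 is logarithmic above 10 CPM and linear below it. The endothelial-like points of Col4a1 (348 to 446 CPM) and of Col4a2 (201 to 342 CPM) lie above every other cluster. Those of Col18a1 in oligodendrocyte precursor-like cells part by genotype, as do some of the control genes. Col4a1 is higher in Dp(10)2Yey than in WT in astrocyte-like cells (means 16.4 and 9.26 CPM) and in a cluster led by S100a9 (15.9 and 0 CPM). Col6a3 is lower in Dp(10)2Yey in endothelial-like cells (0 beside 6.07 CPM in WT).

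The collagen IV genes, controls from outside the duplicated segment, had far more UMIs to go by. Col4a1 had 104 UMIs (35.2 CPM) and 157 UMIs (23.3 CPM) in WT replicates 1 and 2, and 102 UMIs (20.4 CPM) and 223 UMIs (25.1 CPM) in Dp(10)2Yey replicates 1 and 2. Col4a2 had 65 (22.0 CPM), 96 (14.2 CPM), 54 (10.8 CPM) and 166 (18.7 CPM) in the same order. WT replicate 1 was the highest and Dp(10)2Yey replicate 1 the lowest for both genes, and the genotypes overlapped. Group means of Col4a1 were 29.2 ± 8.41 and 22.8 ± 3.32 CPM (SD, n = 2 each) in WT and Dp(10)2Yey, and those of Col4a2 were 18.1 ± 5.52 and 14.8 ± 5.59 CPM.

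The endothelial marker list followed the same order at its ends, at 3260, 2590, 1780 and 2260 CPM in WT replicates 1 and 2 and Dp(10)2Yey replicates 1 and 2. The pericyte list stood at 257, 182, 264 and 247 CPM, and the smooth muscle list at 179, 114, 158 and 181 CPM. The part of the endothelial share of each library in the level of Col4a1 and Col4a2 over all cells was not tested beyond the values within endothelial-like cells.

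Within the endothelial-like cluster, with 56, 81, 54 and 90 cells, Col4a1 stood at 414 and 348 CPM in WT replicates 1 and 2 and at 386 and 446 CPM in Dp(10)2Yey replicates 1 and 2. Col4a2 stood at 228, 232, 201 and 342 CPM in the same order. The genotypes overlapped in both genes, and for Col4a2 Dp(10)2Yey replicate 2 stood above the other 3 libraries. This cluster held 452 of 586 Col4a1 UMIs (77.1%, 73.5 to 80.5) and 298 of 381 Col4a2 UMIs (78.2%, 73.7 to 82.3).

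The order of classes was similar for both chains. Col4a1 fell from 398 ± 41.6 CPM (SD, n = 4) in endothelial-like cells to 41.3 ± 10.6 CPM in ependymal-like, 18.1 ± 9.3 CPM in oligodendrocyte precursor-like and 12.8 ± 5.91 CPM in astrocyte-like cells. The first step did not overlap in any library, and the later ones did. Col4a2 fell from 251 ± 62.4 CPM (SD, n = 4) in endothelial-like cells to 30.7 ± 7.52 CPM in ependymal-like and 14.4 ± 7.69 CPM in astrocyte-like cells, with no overlap at the first 2 steps. Choroid plexus-like cells had 0 UMIs of either gene in 301725 UMIs, which allows up to 9.94 CPM.

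A Col4a1 UMI was seen in 53.7% of endothelial-like cells (47.7 to 59.7; median depth 2091) and in 0.0499% of microglia-like cells (median depth 4097). For Col4a2 the shares were 47.3% (41.4 to 53.3) and 0 of 2005. Thinned to 1000 UMIs, with 83 endothelial-like and 80 microglia-like cells left out, Col4a1 was seen in 30.3% (24.0 to 37.2) and Col4a2 in 25.8% (19.8 to 32.4) of endothelial-like cells, and neither in any of 1925 microglia-like cells. The 22 pericyte-marker cells had 393 CPM of Col4a1 (257 to 576), near the 381 CPM (344 to 421) of endothelial-marker cells. For Col4a2 pericyte-marker cells had 136 CPM (62.3 to 258) and endothelial-marker cells 263 CPM (233 to 297).

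Genotype contrasts over all cells came from a fit of summed UMIs per library with edgeR, and are given as the log2 fold change of Dp(10)2Yey over WT with its standard error (SE). Col6a1 stood at −2.01 (SE 1.02) and Col6a2 at −1.29 (SE 0.76), both lower in Dp(10)2Yey. Without the deepest cell, an alternative chosen after seeing the data, they stood at −0.16 (SE 0.89) and −0.03 (SE 0.69). The size of both values thus depended on 1 cell of WT replicate 2.

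Single libraries moved Col6a1 and Col6a2 as far. Col6a1 was at −2.76 without WT replicate 1, 1.11 without WT replicate 2, −1.30 without Dp(10)2Yey replicate 1 and −5.34 without Dp(10)2Yey replicate 2. Col6a2 was at −1.88, 0.33, −0.67 and −3.14 in the same order. The sign thus depended on whether WT replicate 2 was present. Between libraries of the same number, which the labels do not call pairs, Dp(10)2Yey had less Col6a1 in both (0.2 beside 1.02 CPM for number 1, 3.82 beside 15.6 for number 2) and less Col6a2 (0.798 beside 2.37, and 4.72 beside 11.1). For number 1 this rests on 1 beside 3 UMIs of Col6a1 and 4 beside 7 of Col6a2, with overlapping counting intervals in both genes. With replicate number as a block in the fit, Col6a1 was at −2.06 (SE 0.42) and Col6a2 at −1.32 (SE 0.40). Without the deepest cell, left out after seeing the data, the order of number 2 turned, with WT at 3.43 CPM for both genes, while that of number 1, which does not hold the cell, stayed.

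Col18a1 stood at 0.49 (SE 0.44), higher in Dp(10)2Yey, and between 0.39 and 0.60 when any 1 library was left out. Of the controls, Col6a3 stood at −0.25 (SE 0.44) and between −0.40 and −0.09. Col4a1 stood at −0.31 (SE 0.22) and Col4a2 at −0.22 (SE 0.31). Without WT replicate 1 Col4a1 was at −0.02 and without WT replicate 2 at −0.62. Col4a2 changed sign, to 0.08 or 0.07, when replicate 1 of WT or of Dp(10)2Yey was left out, and was at −0.54 or −0.68 when replicate 2 of WT or of Dp(10)2Yey was left out.

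Within the endothelial-like cluster only the 2 collagen IV genes had enough UMIs to pass the low-count filter. There Col4a1 stood at 0.15 (SE 0.20) and Col4a2 at 0.30 (SE 0.25), each of the opposite sign to its value over all cells. Leaving out 1 library moved Col4a1 between 0.02 and 0.28. Col4a2 was at 0.57 without Dp(10)2Yey replicate 1 and at −0.20 without Dp(10)2Yey replicate 2, so its direction depended on the latter.

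**Figure D5:**
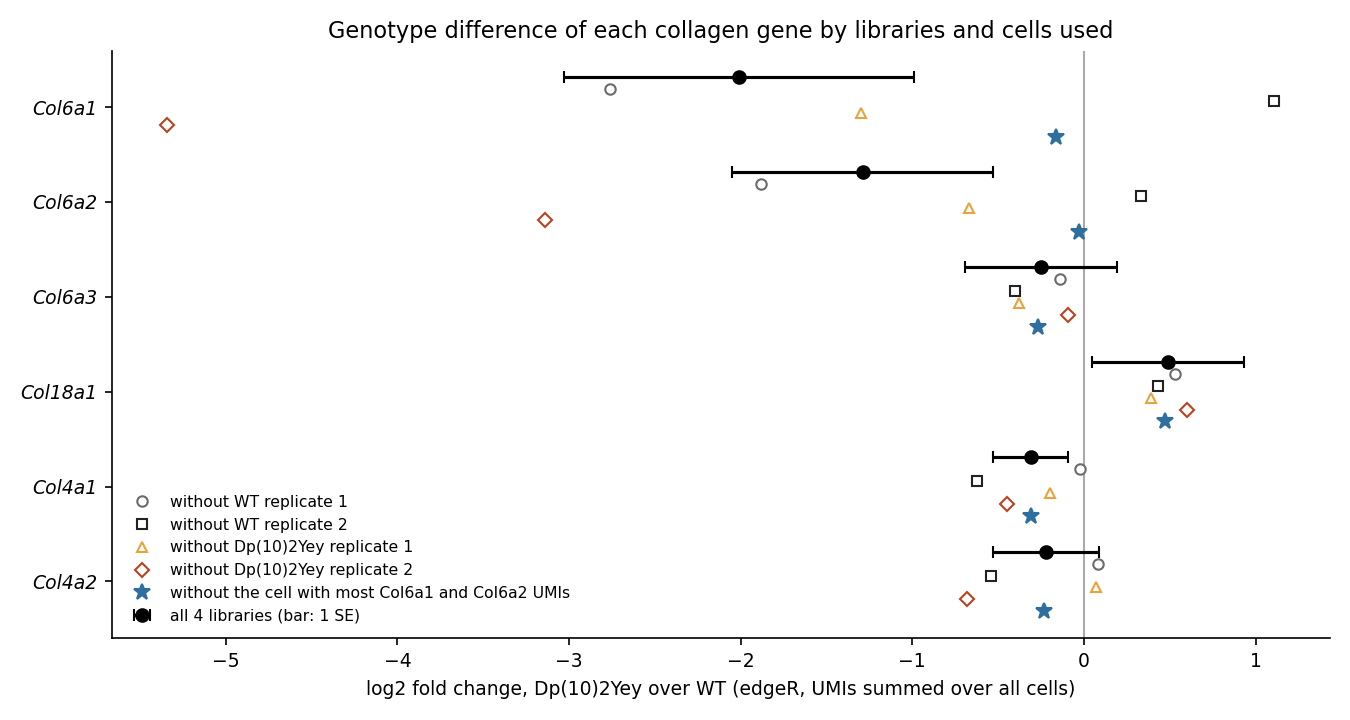
Log2 fold change of Dp(10)2Yey over WT (horizontal axis) for each collagen gene over all cells, with filled points for all 4 libraries, bars of 1 SE, open symbols for fits without 1 library and stars for the fit without the deepest cell. Col6a1 spans −5.34 to 1.11 when 1 library is left out, and Col18a1 0.39 to 0.60.

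Both Dp(10)2Yey libraries were above both WT libraries, in scaled CPM over all cells, for 1 of the 6 collagen genes, Col18a1, beside 14.0% of the 13807 genes tested. Both were below for 0 of the 6, beside 12.9% of all genes. Within the endothelial-like cluster 0 of the 2 fitted collagen genes parted in either direction, beside 16.4% of 4702 genes above and 16.7% below. Over all genes edgeR called 0 of 13807 at an adjusted p under 0.01 (0.00%), so 0 of the 6 collagen genes, with 377 (2.73%) at an unadjusted p under 0.05. DESeq2, fitted without the low-count filter, called 2 of 20429, Fn1 and Tac2, named after their values were seen. Within endothelial-like cells edgeR called 0 of 4702 (0.00%), with 196 (4.17%) at an unadjusted p under 0.05, and DESeq2 called 0 of 13938.

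The genes next to the duplicated collagens bear on the same segment. Pcbp3, an RNA-binding protein gene beside Col6a1, stood at 8.46, 8.3, 9.38 and 11.2 CPM in WT replicates 1 and 2 and Dp(10)2Yey replicates 1 and 2, with a log2 fold change of 0.31 (SE 0.26). Ftcd, beside Col6a2, had 0 UMIs. Pofut2, an O-fucosyltransferase gene beside Col18a1, stood at 31.1, 40.2, 54.9 and 54.9 CPM, a log2 fold change of 0.60 (SE 0.16) with an adjusted p of 1.0 in edgeR, higher in both Dp(10)2Yey libraries.

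Slc19a1, a folate carrier gene that overlaps the end of Col18a1 on the other strand, stood at 8.46, 6.82, 11.8 and 14.7 CPM, a log2 fold change of 0.84 (SE 0.26) with an adjusted p of 1.0 in edgeR, higher in both Dp(10)2Yey libraries. Pcbp3, Pofut2 and Slc19a1 were thus higher in both Dp(10)2Yey libraries than in both WT libraries, as Col18a1 was and Col6a1 and Col6a2 were not. Of the 13807 genes tested over all cells, 14.0% parted in that direction. The log2 fold change of Pcbp3 was close to its SE, 0.31 beside 0.26.

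The sets of cells holding each gene were compared by the Jaccard index, the cells with UMIs of both genes over the cells with UMIs of either, over 6247 cells; deeper cells hold more genes, so values are descriptive. Col6a1 and Col6a2 met in 16 cells, 64.0% of the 25 cells with Col6a1 and 40.0% of the 40 with Col6a2 (index 0.327). Col4a1 and Col4a2 met in 110 cells, 41.7% of 264 and 52.9% of 208 (index 0.304). Col6a1 and Col6a2 thus shared cells, as the 2 collagen IV chains did. Col6a3, seen in 59 cells, met Col6a1 in 1 cell and Col6a2 in 0. With so few cells holding each gene, few meetings could be seen whether or not the chains were apart. These 2 counts therefore do not show whether Col6a3 was apart by cell from the other collagen VI chains.

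The 5 genes most like Col6a1 were Slc26a7 (0.382), Trabd2b (0.367), Slc47a1 (0.367), Itih2 (0.333) and Col6a2 (0.327). Those most like Col6a2 were Col6a1 (0.327), Slc26a7 (0.319), Slc47a1 (0.302), Foxc2 (0.268) and Igfbp6 (0.243). Those most like Col18a1 were Susd5 (0.139), Dpp10 (0.123), 5730559C18Rik (0.117), Plppr1 (0.115) and Nxph1 (0.114), the last of them a leading gene of the oligodendrocyte precursor-like cluster.

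Those most like Col4a1 were Ly6c1 (0.354), Slco1a4 (0.348), Igfbp7 (0.346), Pglyrp1 (0.34) and Ptprb (0.335), and those most like Col4a2 were Cdh5 (0.389), Emcn (0.383), Esam (0.369), Foxq1 (0.367) and Adgrl4 (0.366). Several of these, among them Ly6c1, Slco1a4, Cdh5, Emcn and Esam, are on the endothelial marker list.

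The place of the 6 genes among other collagens was read from where those hold their UMIs; collagens with at least 50 UMIs are meant, and those named were picked after their values were seen. Like Col6a1, the fibrillar collagen gene Col1a2 had more UMIs in the Mgp cluster than in any other, 116 of 237 (48.9%), 61 of them in the deepest cell, and so had Col23a1, with 35 of 74 (47.3%), 28 of them in that cell. Col12a1 had 31 of 82 there (37.8%), 8 of them in that cell. Without the cell Col12a1 still had more UMIs there than in neuroblast-like cells (19), its next cluster, but the other 2 did not lead there: Col1a2 had 55 UMIs in the Mgp cluster, fewer than in endothelial-like cells, and Col23a1 fewer than its 12 in oligodendrocyte-like cells. Like Col6a3, Col27a1 and Col15a1 were held by microglia-like cells, with 89.1% of 1238 and 94.2% of 243 UMIs. Like Col18a1, Col9a3 and Col11a1 had most UMIs in oligodendrocyte precursor-like cells, 51.7% of 632 and 61.5% of 169. Col6a5, another collagen VI chain, had all 90 of its UMIs in ependymal-like cells, where Col6a1 had 0.

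Genes that act with these collagens were counted over 5 lists in the edgeR fit over all cells, which called 0 of their 105 tested genes. Of these, 7 had an unadjusted p under 0.05, beside 2.73% of all genes. DESeq2, without the low-count filter, called 0 of 136. The 7 became 4 without the deepest cell and 4 without the Mgp cluster, both left out after seeing the data. Of 38 other collagens 20 were tested, and their log2 fold changes had a median of −0.05, beside 0.01 over all genes. Of 25 basement membrane partners 21 were tested (median −0.07), and of 31 collagen assembly genes 28 (median −0.01). Of 22 collagen receptors 18 were tested (median 0.01), and of 25 matrix proteases and inhibitors 18 (median 0.02). Within endothelial-like cells 2, 12, 9, 6 and 6 genes of the lists were tested and edgeR called 0, and DESeq2 called 0. In edgeR 3 of them had an unadjusted p under 0.05 (Col1a2, Cspg4 and Adamts1, named after their values were seen), beside 4.17% of all 4702 genes there. The medians of the lists in that order were 0.51, 0.29, 0.25, −0.17 and −0.25, beside 0.00 over all genes there. Their signs differ from those over all cells, but these medians cover fewer genes and those over all cells lay near 0. Nothing is therefore read from the signs.

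Of the 7 genes, named after their values were seen, Col23a1, Agrn, Pcolce, Itga1, Kdr and Mrc2 were lower in Dp(10)2Yey and Mmp9 was higher. The cell that held so much Col6a1 also held 28 of 74 UMIs of Col23a1, 28 of 129 of Pcolce, a procollagen proteinase enhancer gene, and 38 of 174 of Mrc2, a collagen uptake receptor gene. Itga1 and Kdr were instead held by endothelial-like cells, with 511 of 562 and 579 of 710 UMIs, as Col4a1 was.

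The most abundant genes of each list showed where the partners of these collagens are; highest here means among the 11 clusters with at least 10 cells in every library, which leaves out the Mgp cluster. Among the other collagens these were Col27a1, Col9a3, Col11a2 and Col15a1. The basement membrane genes Agrn, Lamb2 and Lamc1 were, like Col4a1 and Col4a2, highest in endothelial-like cells (199, 164 and 99.1 CPM), while Sparc, a collagen-binding matrix protein gene, was highest in microglia-like cells (3020 CPM), as Col6a3 was. Of the assembly genes, Ppib was highest in oligodendrocyte precursor-like cells (892 CPM), P4hb and P4ha1 in microglia-like cells (151 and 118 CPM) and Plod1 in oligodendrocyte-like cells (82.1 CPM).

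Of the receptors, Lair1 was highest in microglia-like cells (528 CPM), Itgb1 in endothelial-like cells (342 CPM), Adgrg1 in astrocyte-like cells (238 CPM) and Ddr1 in ependymal-like cells (557 CPM). The lead of Adgrg1 was narrow, with microglia-like cells at 229 CPM. Of the proteases and inhibitors, Ctsl was highest in microglia-like cells (1280 CPM), narrowly above the Ppbp-led cluster (1230 CPM). Ctss and Timp2 were highest in the Ppbp-led cluster (7850 and 670 CPM) and Ctsb in a cluster led by S100a9 (2140 CPM). The log2 fold changes of these 20 genes over all cells ran from −0.42 (Agrn) to 0.29 (Col15a1).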

How the data were processed

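The files hold UMI counts per gene and barcode that the authors made with Cell Ranger 3.0.2 from 4 hippocampal libraries, deposited as raw counts with no normalization. The depth per library and its counting precision are given with the levels. The 6 genes, the gene lists and the marker lists were chosen with earlier results of these data known. Barcodes with at least 200 genes were clustered with Seurat 5.3.0 (R 4.3.3): 2000 variable genes per library without the 6 collagen genes, integration over 50 dimensions, resolution 0.2; a first pass at 0.5 found 34 red blood cell barcodes, which were left out. Clusters were named where at least 3 of 10 leading genes (ratio of CPM with 10 added) were markers. Scrublet in scanpy 1.11.5 called 58 doublets (0.928%), which were kept.

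UMIs summed per library were fitted with edgeR 4.0.16 (TMM, low-count filter, quasi-likelihood test of genotype, 2 libraries against 2, adjusted p under 0.01), over all cells and over endothelial-like cells. All 6 collagen genes passed the filter over all cells, and 2 in endothelial-like cells. An exact permutation test of 2 against 2 could not fall under 0.33 (2-sided), so none was run. The limit that a count of 0 allows is 3 counts of the total.

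Genes named are the 6 collagen genes, list genes called in a fit, the 4 genes of each of the 5 lists with most UMIs, and the 5 genes most like each collagen gene among genes in at least 10 cells (not given for Col6a3); further names were chosen after their values were seen. The naming rule for clusters and cells, the first-pass resolution, thinning to 1000 UMIs with its pairs of classes, the motifs, the genes that checked the tissue, and fits, levels and shares without the deepest cell or the Mgp cluster were also chosen after seeing the data. Other tools, filters, normalizations, clusterings, cell filters and leaving out each library were tried. DESeq2 1.42.0 served as the second tool and was fitted without the low-count filter of edgeR, so its counts differ from those of edgeR by tool and by filter. Its own default filtering by mean count, used when p-values are adjusted, was left on. The totals given for DESeq2 are therefore genes fitted.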

Additional observations from a re-analysis of the deposited data

Results flagged for a closer look

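In some clusters both Dp(10)2Yey libraries lay to one side of both WT libraries, and for the same gene in another cluster to the other side. For Col6a2 the mean level of Dp(10)2Yey minus that of WT was 3.83 CPM in oligodendrocyte precursor-like cells (5 UMIs over all libraries) and 1.96 CPM in oligodendrocyte-like cells (10 UMIs), but −6.72 CPM in ependymal-like cells (2 UMIs). For Col18a1 it was 17.0 CPM in oligodendrocyte precursor-like cells (41 UMIs) and 7.4 CPM in ependymal-like cells (3 UMIs), but −8.54 CPM in neuroblast-like cells (2 UMIs). In both genes the difference was not tested, and the ependymal-like and neuroblast-like values rest on 2 or 3 UMIs, no more than the 3 counts that a count of 0 allows. The oligodendrocyte-like value of Col6a2 also rests on 4 UMIs of 1 cell. Over all cells both Dp(10)2Yey libraries were above both WT libraries for 14.0% of the 13807 genes tested, and below for 12.9%. In endothelial-like cells the shares were 16.4% and 16.7% of 4702 genes. They were not counted in the other clusters.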

How the results depend on the processing

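Of 134 values under alternatives other than leaving out a library, 119 were kept and 15 moved, and the cause of the moves was not tested. Kept means that a count of genes called stayed at 0, or a log2 fold change moved by less than its standard error. For a share it means a value within the counting interval. Direction was not part of this rule. Over all cells, DESeq2, fitted without the low-count filter of edgeR, called 2 genes and edgeR without that filter 87, against 0. The matrix lists had 1 gene called by edgeR without the filter (Mmp12, named after its value was seen). Of the 87, 1 is one of the 6 collagen genes, beside 0.426% of the 20429 genes in that fit; they were chosen with this contrast known, so nothing is read from it. The standard error of Col6a1 was 1.02, and 0.40 without the filter; that of Col6a2 was 0.76, and 0.40 without it. In endothelial-like cells edgeR called 19 genes without the filter and 12 with replicate number as a block in the fit, against 0. The replicate block called 0 genes over all cells. Deviations from the group means of libraries with the same number correlated at −0.00749 over all cells and 0.0224 in endothelial-like cells, so the data do not show whether numbers mark pairs.

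Leaving out each library in turn, edgeR called 0 to 4 genes over all cells and 0 to 0 of the matrix lists. The 4 were S100a8, S100a9, Ccl5 and Cnr1 without WT replicate 1; without Dp(10)2Yey replicate 1 there were 2 (Car1 and Ngp), without Dp(10)2Yey replicate 2 there were 2 (Ccl7 and Hbb-bt), all named after their values were seen, and without WT replicate 2 there were 0. In endothelial-like cells it called 0 to 36 genes: 0 without WT replicate 1, 12 without WT replicate 2, 22 without Dp(10)2Yey replicate 1 and 36 without Dp(10)2Yey replicate 2, among them 2 of the matrix lists (Cspg4 and Ctss, named after their values were seen). Such fits assume that the lone library varies like the other genotype.

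With each library left out in turn, the log2 fold change over all cells ran from −5.34 to 1.11 for Col6a1, −3.14 to 0.33 for Col6a2, −0.40 to −0.09 for Col6a3, 0.39 to 0.60 for Col18a1, −0.62 to −0.02 for Col4a1 and −0.68 to 0.08 for Col4a2. In endothelial-like cells it ran from 0.02 to 0.28 for Col4a1 and −0.20 to 0.57 for Col4a2. Without the deepest cell, chosen after seeing the data, Col6a1 was at −0.16 and Col6a2 at −0.03. Endothelial-like sums thinned to the smallest library gave 0.41 for Col4a1 and 0.04 for Col4a2, and sums of all cells thinned alike gave −0.68 (SE 0.53) for Col6a3, beside −0.25 (SE 0.44).

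The endothelial-like share was 95.8% of Col6a1 and 78.9% of Col6a2 UMIs at resolution 0.5, 97.2% and 80.5% without integration, and 97.2% and 80.5% with the 6 genes among the variable genes. Without the Mgp cluster, also chosen after seeing the data, Col6a1 and Col6a2 failed the low-count filter and gave no value. Col6a1, Col6a2, Col6a3 and Col18a1 failed it in the endothelial-like cluster at resolution 0.2 with integration. In the 3 other clusterings Col6a1 and Col6a2 passed, with Col6a1 at −1.54 (SE 0.98), −1.47 and −1.47 and Col6a2 at −1.17 (SE 0.98), −1.09 and −1.09 in the order above; these clusters hold the deepest cell. At resolution 0.2 DESeq2 gave −0.62 (SE 1.97) for Col6a1 and 2.05 (SE 4.94) for Col6a2, and edgeR without the filter −0.28 (SE 1.02) and 3.15 (SE 3.21). Dp(10)2Yey replicate 1 had 1 Col6a1 and 4 Col6a2 UMIs and no cell of the Mgp cluster.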
